A study of Mus musculus with 12 samples.

Results

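The interferon response genes described here are 42 named mouse genes that signal for, are switched on by or carry out the antiviral program of interferons. They were taken by name from a deposited table of 24421 genes with no threshold on their measured values, and all 42 were found there. All 42 were also among the 18948 genes tested. By role they comprise 3 receptor chains, 8 transcriptional regulators, 5 sensors and sensor partners, 8 genes of the IFIT and OAS families, 6 GTPase and other effector genes, 3 membrane effectors, 3 genes of the ISG15 system and 6 other induced genes.

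Interferons are secreted proteins that cells release when they sense foreign or misplaced nucleic acid. Type I interferons bind the receptor chains IFNAR1 and IFNAR2, and interferon gamma binds a receptor that contains IFNGR1. The receptors act through JAK kinases on STAT proteins, which bind the interferon-stimulated response element (ISRE), in a complex with IRF9, or the gamma-activated site (GAS), and so turn on a shared set of antiviral genes. Several of these genes also encode the sensors and factors of the pathway itself, and in bulk tissue their RNA can come from tumor, stromal or immune cells.

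Bulk RNA sequencing of 12 libraries compared sarcomas from bone or bone marrow of p53 knockout (KO) mice, here called KO tumors (6 libraries), mesenchymal stem cells (MSC) labelled as from p53 knockout mice (3 libraries) and MSC from p53 wild-type (WT) mice (3 libraries). All cells and tumors were freshly isolated, without further treatment. MSC were sorted from marrow as LepR+ CD140a+ cells that lacked the blood and vessel cell markers CD31, CD45 and Ter119, while RNA of tumors was extracted with TRIzol and no sort is described for them, although their labelled cell type is tumor cell. The deleted part of Trp53, the cells in which it was deleted, and the strain, age and sex of the mice are not given in the labels used here, and the series title attributes the p53 loss to mesenchyme. Values are log2 values that the authors stabilized and adjusted for batch, and they are not scaled by gene length. They were therefore compared between libraries for 1 gene at a time and not between genes.

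Trp53 itself lay near its WT MSC values in the libraries labelled KO_MSC 1 and 2. It was at 7.56, 7.80, 8.72, 9.16, 7.19 and 6.79 in tumors, 10.49, 9.76 and 6.96 in libraries labelled KO MSC, and 9.96, 10.04 and 10.61 in WT MSC, in the order of library numbers, as in all lists of values below. Since the deleted part of Trp53 is not given, RNA levels of the gene cannot settle whether a label is right. Every comparison with the libraries labelled KO MSC rests on these labels. Tumors 1 to 3, KO_MSC 1 and WT_MSC 1 share exact lowest values and are called batch 1, and the 7 other libraries are called batch 2. The depth of the libraries is unknown, since no counts are among the files, and 2632 and 3730 genes lay at their lowest value in KO_MSC 1 and WT_MSC 1, against 9251 to 12336 in the 10 others. The library labelled KO_MSC 3 had the most such genes, and the ribosomal RNA precursor Rn45s was at 19.75 in it, against 13.35 to 17.92 in the other libraries. Among the members, Oas2, Mx1 and Mx2 lay at their lowest value in some libraries.

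The promoters of 5 members are shown so that genes with and without an ISRE core can be set side by side: Isg15 and Oas1a, which were higher in tumors than in WT MSC, Ifngr1, which was lower, and Ifit1 and Gbp2, which were lower without overlap in the libraries labelled KO MSC than in WT MSC. Each line gives the 150 bases before the RefSeq transcript start (build GRCm38.p6), 5′ to 3′ on the gene's strand, with ISRE cores in capitals. Isg15 lies at chr4:156200819-156200968, minus strand; Oas1a at chr5:120907526-120907675, minus strand; Ifit1 at chr19:34640739-34640888, plus strand; Gbp2 at chr3:142620513-142620662, plus strand; and Ifngr1 at chr10:19591799-19591948, plus strand.
Isg15: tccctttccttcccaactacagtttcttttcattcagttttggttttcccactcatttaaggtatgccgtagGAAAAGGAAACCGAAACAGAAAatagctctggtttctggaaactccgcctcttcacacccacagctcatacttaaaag
Oas1a: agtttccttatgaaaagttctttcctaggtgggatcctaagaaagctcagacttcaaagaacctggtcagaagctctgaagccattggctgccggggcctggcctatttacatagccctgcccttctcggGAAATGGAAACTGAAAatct
Ifit1: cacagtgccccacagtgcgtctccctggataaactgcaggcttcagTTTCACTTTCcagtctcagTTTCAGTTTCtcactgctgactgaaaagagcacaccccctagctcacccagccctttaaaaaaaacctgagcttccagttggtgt
Gbp2: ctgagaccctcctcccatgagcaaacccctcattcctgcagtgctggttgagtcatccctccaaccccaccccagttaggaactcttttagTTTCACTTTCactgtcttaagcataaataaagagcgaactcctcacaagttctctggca
Ifngr1: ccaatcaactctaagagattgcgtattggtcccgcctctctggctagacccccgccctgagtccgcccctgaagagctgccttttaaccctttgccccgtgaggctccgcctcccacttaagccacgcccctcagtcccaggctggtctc

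The ISRE core was searched on both strands as GAAA, any 2 bases and GAAA again, and GAS as TTCNNNGAA, which is its own reverse complement. In the Isg15 window 3 matches overlapped into a run of 22 capitals that began 78 bases before the start, and in Oas1a 2 matches overlapped into 16 capitals that began 20 bases before it. The RefSeq span of Oas1a (chr5:120896256-120907544) covers all but the first of these capitals, so the others lie inside the gene's annotated span. Ifit1 had 2 separate matches that began 104 and 85 bases before the start, Gbp2 had 1 that began 59 bases before it, and Ifngr1 had none. In Ifit1 and Gbp2 the core lies on the opposite strand and reads as TTTC on either side of the 2 free bases. RefSeq promoter windows of 250 bases before to 50 bases after the start were matched for 33 of the 42 members. An ISRE core was found in 14 of the 33 (42.4%), against 3.99% of the 27025 genes with such a window, and a GAS in 10 of the 33 (30.3%), against 9.55%. Both motifs were present in 4 member promoters and overlapped in 2. By role, ISRE cores were found in 0 of 3 receptor genes, 2 of 8 regulators, 2 of 3 sensors, 4 of 7 IFIT and OAS genes, 3 of 4 GTPase and other effector genes, 2 of 3 membrane effectors, 1 of 2 genes of the ISG15 system and 0 of 3 other induced genes. Of members with a window, 2 of 3 called higher and 1 of 5 called lower in tumors against WT MSC had an ISRE core. The same held for 1 of 3 called higher against the libraries labelled KO MSC. Stat2, called lower, had a core, and Irf5, called higher, had none. Whether a core goes with the direction of change was not tested. A match describes these letters only and is not a bound site.

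The members did not move as a block between tumors and WT MSC, where 20 differences were positive and 22 negative. In 36 of the 42 members the mean was higher in tumors than in the libraries labelled KO MSC, as in 52.7% of all genes. Against WT MSC, tumors had lower values of all 3 receptor chains and of Stat2 and Irf1, and higher values of Irf5, Zbp1, Oas1a, Oas2 and Isg15. Against the libraries labelled KO MSC, tumors had higher values of Irf5, Irf8, Zbp1 and Oas1a. Between the libraries labelled KO MSC and WT MSC no member passed, although 38 of the 42 members had a lower mean in the libraries labelled KO MSC. A member passed where limma's Benjamini-Hochberg adjusted p over all 18948 genes was under 0.05, and errors given with ± after a change are limma's standard errors (n = 6 tumors and 3 of each MSC group).

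In numbers, tumors against the libraries labelled KO MSC had 4 of 42 members higher and 0 lower (9.52%), where 4.98% of all genes passed, 2.7% higher and 2.28% lower. The members' differences had a median of 0.79, against 0.04 over all genes. Of them 36 were positive and 6 negative, where 52.7% of all genes were positive. Irf5, Irf8, Zbp1, Ifit3, Oas1a, Oas2 and Mx1 were higher in every tumor than in every library labelled KO MSC (7 members, 16.7%, against 8.0% of all genes), and Irf3 was lower in every tumor (2.38%, against 5.39%). The 944 genes that passed in all divided into 512 higher and 432 lower, and with quantile scaling into 521 higher and 1024 lower. Tumors against WT MSC had 5 members higher and 5 lower (23.8%), where 21.3% of all genes passed, 10.4% higher and 10.9% lower, so that the members' share was near that of all genes. Their differences had a median of -0.11, against -0.06 over all genes, and 20 were positive and 22 negative. Groups did not overlap in 6 members that were higher in tumors than in WT MSC (14.3%, against 12.9% of all genes) and in 7 that were lower (16.7%, against 12.3%). The libraries labelled KO MSC against WT MSC had 0 of 42 members called, where 0.0% of all genes passed. All 3 comparisons share libraries pairwise, so their values are not independent of each other. Whether each library came from its own mouse is not stated, so p-values reflect library-to-library spread only, and this may be technical.

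**Figure D1:**
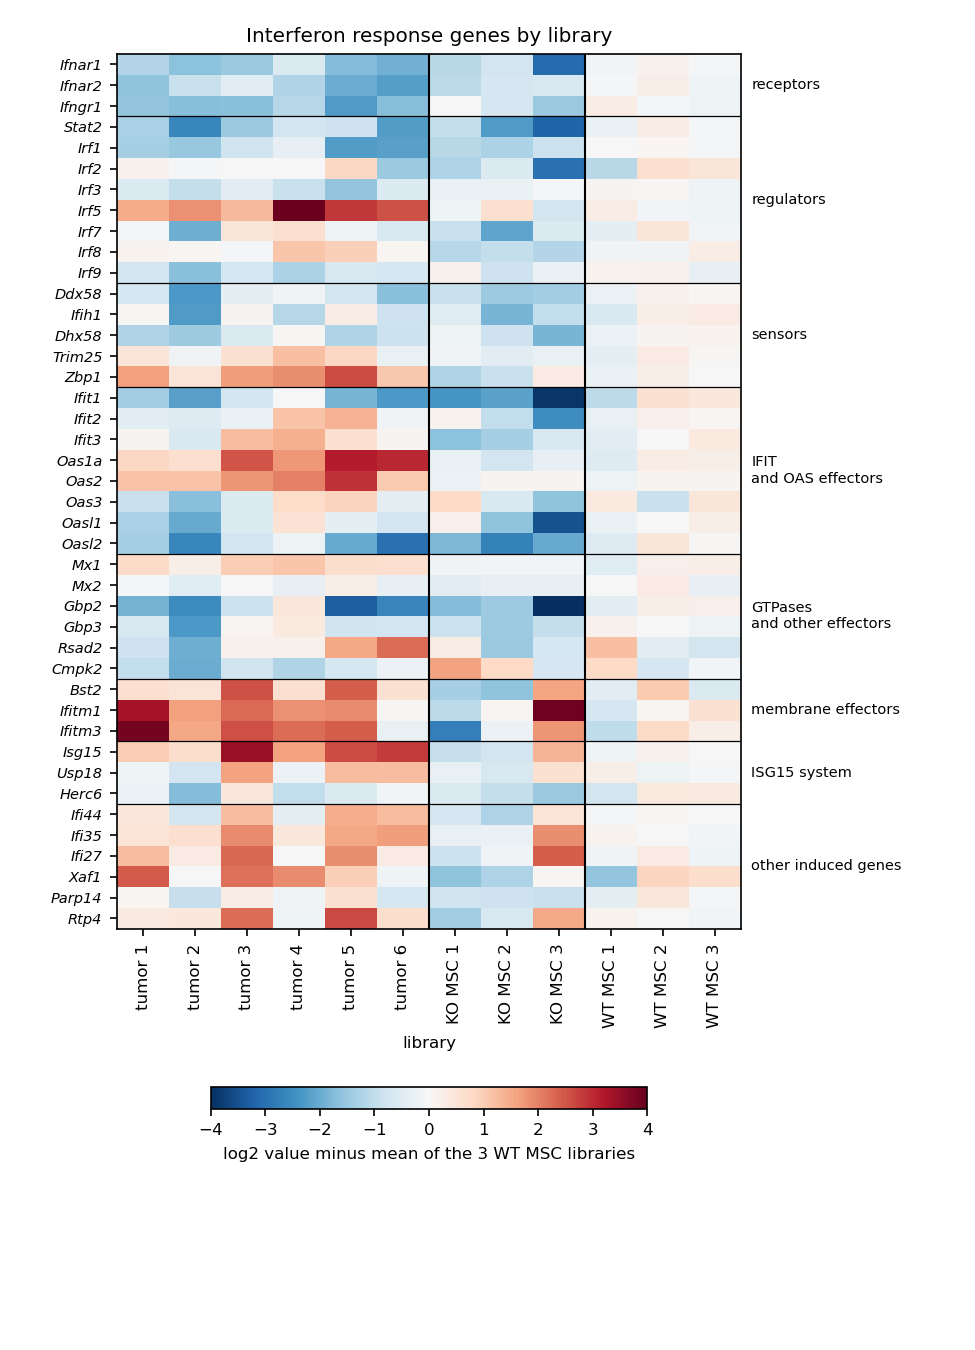
Stabilized log2 value of each of the 42 members minus its mean over the 3 WT MSC libraries (color, with values beyond 4 units drawn in the end colors), in 6 KO tumors, 3 libraries labelled KO MSC and 3 WT MSC libraries, ordered by role. The receptor chains are blue in all tumors and Irf5, Oas1a, Oas2 and Isg15 are red in all tumors, while the library labelled KO MSC 3 holds both dark blue and dark red cells.

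**Figure D2:**
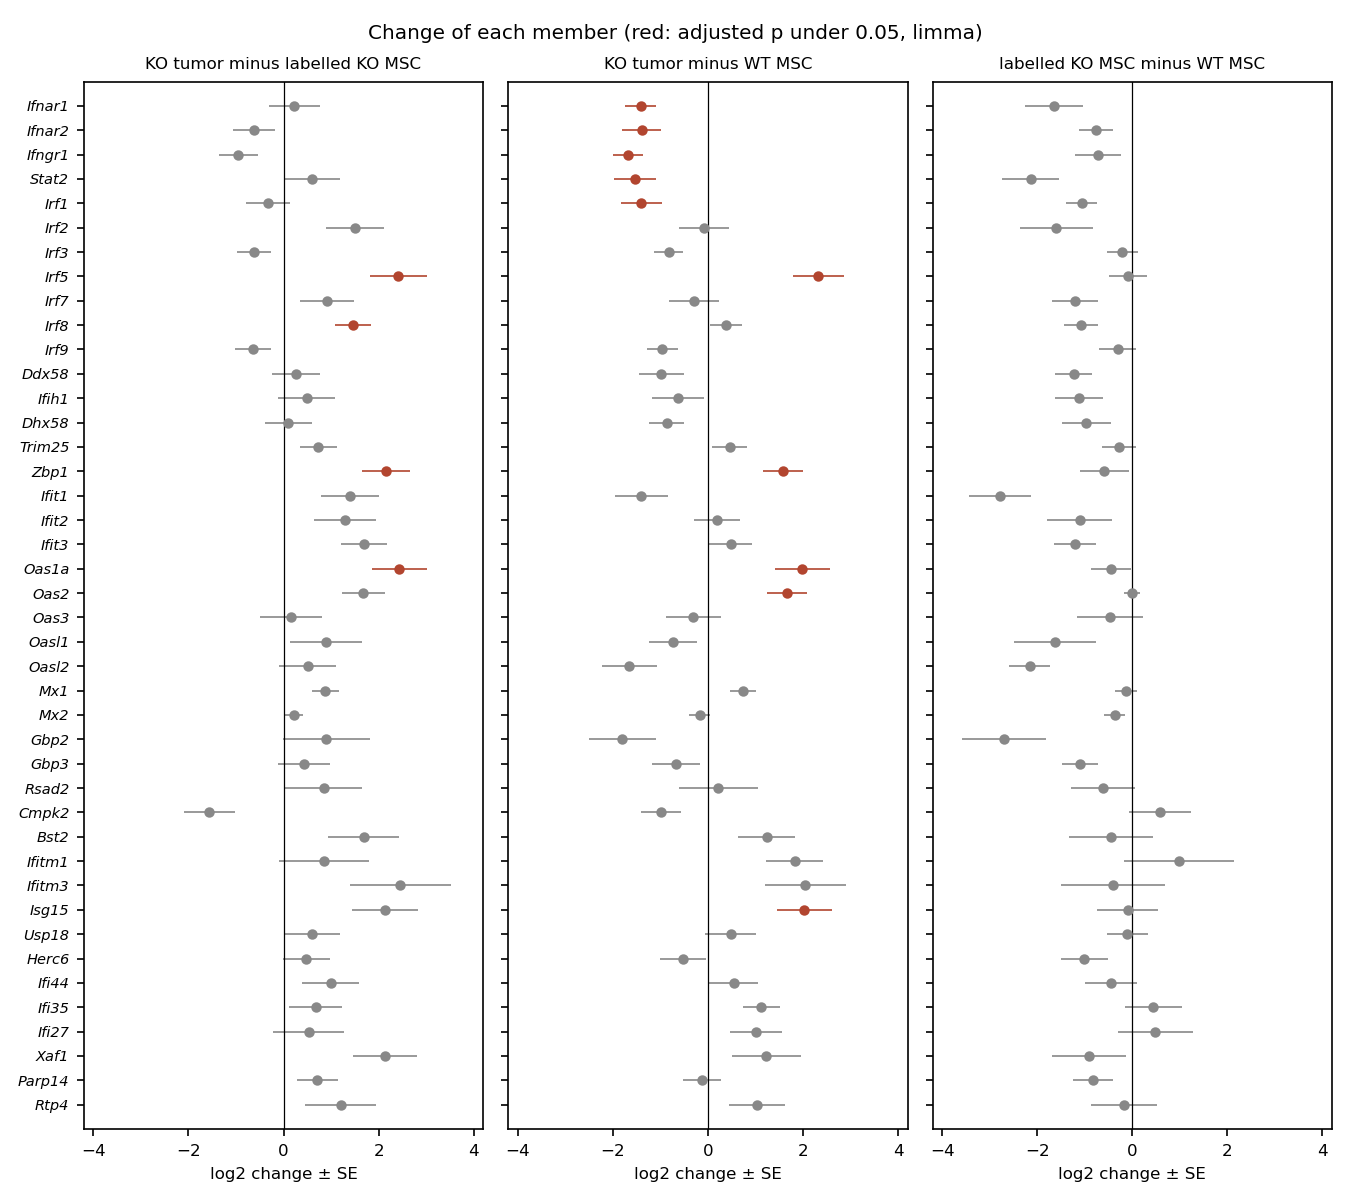
Difference of group means of each member on the log2 scale (points) with limma's standard error (lines) for KO tumor minus labelled KO MSC (left), KO tumor minus WT MSC (middle) and labelled KO MSC minus WT MSC (right). Red marks an adjusted p under 0.05, which 4, 10 and 0 members reached.

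All 3 receptor chains had lower values in tumors than in WT MSC. Ifngr1, the ligand-binding chain of the interferon gamma receptor, was at 10.55, 10.44, 10.47, 11.01, 9.88 and 10.45 in tumors, 12.13, 11.48 and 10.65 in libraries labelled KO MSC, and 12.43, 12.07 and 11.93 in WT MSC. The highest tumor lay below the lowest WT MSC library, and tumors fell by 1.68 ± 0.32 (a 3.2-fold difference; adjusted p = 0.00476, limma), with -1.95 within batch 1 and -1.56 within batch 2. This was the 1 member call that remained whichever of the 9 libraries was left out (highest adjusted p = 0.0316, limma).

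Ifnar1, a chain of the type I receptor, was at 8.89, 8.43, 8.59, 9.51, 8.34 and 8.14 in tumors, 8.96, 9.32 and 6.98 in libraries labelled KO MSC, and 9.95, 10.24 and 10.03 in WT MSC. All tumors lay below all WT MSC libraries, by -1.42 ± 0.33 on average (adjusted p = 0.0125, limma; -1.31 within batch 1 and -1.47 within batch 2), and the call was lost without WT_MSC 2 (adjusted p = 0.0608, limma). Ifnar2, the other chain of that receptor, was at 10.13, 10.85, 11.28, 10.52, 9.75 and 9.52 in tumors, 10.68, 11.07 and 11.11 in libraries labelled KO MSC, and 11.68, 11.95 and 11.55 in WT MSC. Tumors again lay below WT MSC throughout, by -1.39 ± 0.41 (adjusted p = 0.0351, limma; -0.93 within batch 1 and -1.82 within batch 2). The Ifnar2 call was lost with upper-quartile scaling (adjusted p = 0.0596, limma), with the other deposited table (adjusted p = 0.0757, limma) and without tumor 1, 5 or 6 or any 1 of the WT MSC libraries (highest adjusted p = 0.121, limma). Against the libraries labelled KO MSC none of the receptor chains passed, with differences of 0.23 for Ifnar1, -0.62 for Ifnar2 and -0.95 for Ifngr1. Ifnar1 in the library labelled KO_MSC 3 was lower than in any tumor.

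Among the regulators, Irf5 and Irf8 differed upward and Stat2 and Irf1 downward. Irf5, a factor that acts downstream of Toll-like receptors and is known from macrophages and other immune cells, was at 7.31, 7.65, 7.13, 9.74, 8.66 and 8.38 in tumors, 5.65, 6.45 and 5.10 in libraries labelled KO MSC, and 6.11, 5.70 and 5.65 in WT MSC. All 6 tumors lay above all 6 MSC libraries, and tumors 4, 5 and 6 were the highest. Irf5 rose by 2.41 ± 0.60 against the libraries labelled KO MSC (adjusted p = 0.0437, limma; 1.71 within batch 1 and 3.15 within batch 2). Against WT MSC it rose by 2.32 ± 0.54 (adjusted p = 0.0127, limma; 1.26 within batch 1 and 3.25 within batch 2). The call against WT MSC was lost without WT_MSC 2 or 3 (highest adjusted p = 0.0565, limma), and that against the libraries labelled KO MSC without tumor 2, 4, 5 or 6 or any 1 of the libraries labelled KO MSC (highest adjusted p = 0.18, limma). The exons of Irf5 share 411 bases with Tnpo3 on the opposite strand, and the library kit does not mark strand, so reads of that stretch cannot be assigned to either gene. Exons of Ifnar2, Irf1, Irf3, Irf7 and Irf9 also overlap another protein-coding gene.

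Irf8, a factor that directs the development of monocytes, macrophages and dendritic cells, was at 9.03, 8.96, 8.81, 9.99, 9.84 and 8.97 in tumors, 7.75, 7.93 and 7.71 in libraries labelled KO MSC, and 8.75, 8.73 and 9.17 in WT MSC. The libraries labelled KO MSC formed the low group, below every tumor and every WT MSC library, while tumors and WT MSC overlapped. Irf8 rose by 1.47 ± 0.38 in tumors against the libraries labelled KO MSC (adjusted p = 0.0487, limma; 1.18 within batch 1 and 1.78 within batch 2), a call that was lost whichever of the 9 libraries was left out (highest adjusted p = 0.178, limma). Against WT MSC the difference was 0.38 ± 0.34, adjusted p = 0.441 (limma).

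Stat2, a part of the complex with IRF9 that binds the ISRE, was at 7.82, 6.52, 7.63, 8.35, 8.30 and 6.89 in tumors, 8.18, 6.85 and 5.93 in libraries labelled KO MSC, and 8.87, 9.42 and 9.08 in WT MSC. WT MSC were high without overlap, and the libraries labelled KO MSC spread from near the top of the tumors' range to below it. Against WT MSC, Stat2 fell by 1.54 ± 0.44 in tumors (adjusted p = 0.0306, limma; -1.55 within batch 1 and -1.40 within batch 2), and the call was lost without tumor 3 or 6 or any 1 of the WT MSC libraries (highest adjusted p = 0.118, limma).

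Irf1, an activator of interferon gamma target genes, was at 9.36, 9.15, 9.89, 10.34, 8.43 and 8.49 in tumors, 9.58, 9.42 and 9.82 in libraries labelled KO MSC, and 10.65, 10.74 and 10.64 in WT MSC. The 3 WT MSC libraries lay close together and above all other libraries. Against WT MSC, Irf1 fell by 1.40 ± 0.43 in tumors (adjusted p = 0.0409, limma; -1.18 within batch 1 and -1.60 within batch 2). That call was lost with a batch term (adjusted p = 0.0555, limma), with the other deposited table (adjusted p = 0.0647, limma) and without tumor 1, 2, 5 or 6 or any 1 of the WT MSC libraries (highest adjusted p = 0.122, limma). The other regulators did not pass in any comparison. Against WT MSC, Irf9, the DNA-binding partner of the STAT proteins, differed by -0.96 ± 0.32, adjusted p = 0.0529, and Irf3, an inducer of interferon genes, by -0.83 ± 0.31, adjusted p = 0.0792 (limma), both without overlap between the groups. Irf7, the other main inducer of interferon genes, and Irf2, an antagonist of Irf1, overlapped between tumors and both MSC groups. Irf7 ranged over 8.25 to 10.83 in tumors, 8.08 to 9.61 in libraries labelled KO MSC and 9.83 to 10.69 in WT MSC. Irf2 covered 6.55 to 8.85 in tumors, 5.04 to 7.44 in libraries labelled KO MSC and 6.91 to 8.67 in WT MSC, and tumors differed by 1.51 ± 0.61 and -0.09 ± 0.53 against these MSC groups. In Irf3 the tumors lay below all MSC libraries, with 8.16 to 9.28 in tumors, 9.46 to 9.66 in libraries labelled KO MSC and 9.57 to 9.85 in WT MSC. Irf9 was at 8.03 to 9.04 in tumors, 8.86 to 9.87 in libraries labelled KO MSC and 9.37 to 9.87 in WT MSC.

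Of the sensors, Zbp1 alone passed. Zbp1, which binds nucleic acid in the Z form and can start necroptosis, was at 9.40, 8.28, 9.43, 9.63, 10.38 and 8.84 in tumors, 6.55, 6.87 and 8.09 in libraries labelled KO MSC, and 7.50, 8.0 and 7.78 in WT MSC. Every tumor exceeded every MSC library, with tumor 5 highest and tumor 2 lowest. Zbp1 rose by 2.16 ± 0.50 against the libraries labelled KO MSC (adjusted p = 0.0332, limma; 2.48 within batch 1 and 2.14 within batch 2) and by 1.57 ± 0.42 against WT MSC (adjusted p = 0.0232, limma; 1.54 within batch 1 and 1.73 within batch 2). The call against WT MSC was lost without any 1 of the WT MSC libraries (highest adjusted p = 0.105, limma). That against the libraries labelled KO MSC was lost without tumor 1, 3, 4 or 5 or KO_MSC 1 or 2 (highest adjusted p = 0.183, limma). The RNA sensors themselves had other values. Ddx58, which encodes RIG-I, was at 7.95, 6.36, 8.28, 8.50, 7.92 and 6.97 in tumors, 7.75, 7.20 and 7.27 in libraries labelled KO MSC, and 8.42, 8.81 and 8.71 in WT MSC, and its difference in tumors was 0.26 ± 0.51 against the libraries labelled KO MSC and -0.98 ± 0.47 against WT MSC. Against WT MSC, Ifih1, which encodes MDA5, differed by -0.63 ± 0.55, Dhx58, which encodes LGP2, by -0.87 ± 0.37, and Trim25, the ubiquitin ligase that activates RIG-I, by 0.46 ± 0.37, and none of them passed. Ifih1 spanned 6.27 to 8.83 in tumors, 6.70 to 8.05 in libraries labelled KO MSC and 7.95 to 8.89 in WT MSC, and tumor 2 was its lowest library. Dhx58 spanned 6.70 to 8.17 in tumors, 6.27 to 7.92 in libraries labelled KO MSC and 7.89 to 8.26 in WT MSC. For Trim25 the values were 8.52 to 10.00 in tumors, 8.40 to 8.67 in libraries labelled KO MSC and 8.45 to 9.12 in WT MSC, with tumor 4 highest.

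The OAS genes, whose products make the messenger that activates RNase L, included both Oas1a and Oas2 among the higher genes. Oas1a was at 8.90, 8.75, 10.60, 9.80, 11.21 and 11.07 in tumors, 7.79, 7.31 and 7.75 in libraries labelled KO MSC, and 7.55, 8.37 and 8.29 in WT MSC. Tumors were higher than all MSC libraries without overlap, and tumors 3, 5 and 6 lay above 10. Oas1a rose by 2.44 ± 0.58 (a 5.42-fold difference) against the libraries labelled KO MSC (adjusted p = 0.0361, limma; 1.63 within batch 1 and 3.16 within batch 2) and by 1.98 ± 0.58 against WT MSC (adjusted p = 0.0339, limma; 1.87 within batch 1 and 2.36 within batch 2). The call against WT MSC was lost without tumor 3, 5 or 6 or any 1 of the WT MSC libraries (highest adjusted p = 0.15, limma), and that against the libraries labelled KO MSC without tumor 3, 4, 5 or 6 or any 1 of those libraries (highest adjusted p = 0.154, limma). Reads of Oas1a can be shared with its near copies such as Oas1g, which had 8.24, 7.69, 8.96, 9.02, 9.75 and 10.23 in tumors, 6.28, 5.45 and 4.74 in libraries labelled KO MSC, and 6.12, 7.73 and 7.36 in WT MSC.

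Oas2 was at 6.30, 6.31, 6.93, 7.16, 8.04 and 6.22 in tumors, 4.93, 5.26 and 5.26 in libraries labelled KO MSC, and 4.96, 5.26 and 5.26 in WT MSC, and 2 libraries of each MSC group lay at its lowest value, so that the change is understated. Every tumor exceeded every MSC library. Oas2 rose by 1.67 ± 0.42 against WT MSC (adjusted p = 0.017, limma; 1.56 within batch 1 and 1.88 within batch 2), a call lost without any 1 of the WT MSC libraries (highest adjusted p = 0.0857, limma). Against the libraries labelled KO MSC its difference was 1.68 ± 0.46, adjusted p = 0.0595 (limma). The sister gene Oas3 overlapped between all groups, with -0.31 ± 0.58 in tumors against WT MSC. Oasl1 and Oasl2, which encode OAS-like proteins, had tumor differences of -0.74 ± 0.50 and -1.66 ± 0.58 against WT MSC and did not pass. Oasl1 lay at 6.32 to 8.92 in tumors, 4.85 to 8.55 in libraries labelled KO MSC and 8.09 to 8.62 in WT MSC. Oas3 lay at 4.99 to 7.56 in tumors, 5.04 to 7.47 in libraries labelled KO MSC and 5.77 to 7.15 in WT MSC, so that the extremes of all libraries were both tumors.

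The IFIT genes, whose products bind viral RNA and block its translation, did not pass in tumors. Ifit1 was at 7.73, 6.93, 8.38, 9.12, 7.25 and 6.81 in tumors, 6.75, 6.96 and 5.22 in libraries labelled KO MSC, and 8.07, 9.71 and 9.54 in WT MSC. Only tumors 3 and 4 reached the range of WT MSC, and all libraries labelled KO MSC lay below tumors 1, 3, 4 and 5. Its tumor difference was -1.40 ± 0.56, adjusted p = 0.102 against WT MSC and 1.39 ± 0.61, adjusted p = 0.178 against the libraries labelled KO MSC (limma). Ifit3 differed by 1.69 ± 0.49, adjusted p = 0.0686 (limma) against the libraries labelled KO MSC, where all tumors were higher, and by 0.48 ± 0.45 against WT MSC. Its values were 8.02 to 10.04 in tumors, 6.98 to 7.98 in libraries labelled KO MSC and 8.21 to 9.03 in WT MSC. Ifit2 differed by 1.30 ± 0.65 and 0.19 ± 0.48 against these groups, with values of 6.99 to 8.90 in tumors, 5.02 to 7.63 in libraries labelled KO MSC and 7.21 to 7.71 in WT MSC. Tumors 4 and 5 were the highest libraries in Ifit2, and the library labelled KO_MSC 3 was the lowest.

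None of the GTPase and other effector genes passed. Gbp2, a guanylate-binding GTPase that interferon gamma induces strongly, was at 7.74, 7.09, 8.76, 10.08, 6.35 and 6.98 in tumors, 7.90, 8.17 and 4.72 in libraries labelled KO MSC, and 9.19, 9.87 and 9.84 in WT MSC. Tumor 4 exceeded all MSC libraries, while tumors 2, 5 and 6 and the library labelled KO_MSC 3 lay at least 2 units below every WT MSC library. Its tumor difference was -1.80 ± 0.71, adjusted p = 0.0965 against WT MSC and 0.90 ± 0.91, adjusted p = 0.559 against the libraries labelled KO MSC (limma). Gbp3, of the same family, was at 8.09, 6.44, 8.79, 9.11, 7.93 and 7.95 in tumors, 7.86, 7.26 and 7.76 in libraries labelled KO MSC, and 8.90, 8.75 and 8.53 in WT MSC, and tumors spanned both MSC groups. Mx1 and Mx2, which encode antiviral dynamin-like GTPases, were near their lowest values everywhere, between 4.79 and 6.39 for Mx1 and between 4.98 and 5.81 for Mx2. All tumors exceeded the libraries labelled KO MSC in Mx1 (0.88 ± 0.28, adjusted p = 0.0873, limma).

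Rsad2, which encodes the antiviral enzyme viperin, and Cmpk2, a nucleotide kinase gene beside it on chromosome 12, did not show the same order of groups. Rsad2 was at 7.72, 6.60, 8.72, 8.71, 10.11 and 10.78 in tumors, 8.86, 7.07 and 7.85 in libraries labelled KO MSC, and 9.76, 8.09 and 7.81 in WT MSC. Its tumors covered both MSC groups, with tumors 5 and 6 high and tumor 2 low. Cmpk2 differed in tumors by -1.56 ± 0.53 against the libraries labelled KO MSC (adjusted p = 0.109) and -0.99 ± 0.43 against WT MSC (adjusted p = 0.126, limma), neither of which passed. It ranged over 6.78 to 8.53 in tumors, 8.08 to 10.39 in libraries labelled KO MSC and 8.09 to 9.56 in WT MSC.

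Isg15, a ubiquitin-like protein that is attached to other proteins after interferon, was at 8.90, 8.57, 11.33, 9.48, 10.48 and 10.66 in tumors, 6.95, 7.12 and 9.24 in libraries labelled KO MSC, and 7.69, 8.04 and 7.89 in WT MSC. All tumors exceeded WT MSC, whereas the library labelled KO_MSC 3 lay within the range of the tumors. Isg15 rose by 2.03 ± 0.57 (a 4.08-fold difference) against WT MSC (adjusted p = 0.0294, limma; 1.91 within batch 1 and 2.24 within batch 2), a call lost without tumor 5 or 6 or any 1 of the WT MSC libraries (highest adjusted p = 0.115, limma). Against the libraries labelled KO MSC its difference was 2.13 ± 0.69, adjusted p = 0.0938 (limma). Usp18, which removes ISG15 and restrains the type I receptor, and Herc6, the ligase that attaches ISG15 in mice, differed by 0.48 ± 0.54 and -0.53 ± 0.48 against WT MSC and did not pass. Usp18 lay at 8.16 to 10.54 in tumors, 8.30 to 9.55 in libraries labelled KO MSC and 8.75 to 9.17 in WT MSC, with tumors 3, 5 and 6 above all MSC libraries. Herc6 lay at 6.47 to 8.64 in tumors, 6.70 to 7.63 in libraries labelled KO MSC and 7.46 to 8.58 in WT MSC, with tumor 2 the lowest.

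The membrane effectors had positive tumor differences in both comparisons, and none passed. Ifitm3, which blocks virus entry at endosomes, was at 16.86, 14.58, 15.61, 15.26, 15.46 and 12.72 in tumors, 10.28, 12.80 and 14.78 in libraries labelled KO MSC, and 12.02, 13.79 and 13.28 in WT MSC. Tumor 1 was the highest of all libraries and tumors 2 and 6 lay within the range of the MSC libraries. Against WT MSC, Ifitm3 differed by 2.05 ± 0.85, adjusted p = 0.111, Ifitm1 of the same family by 1.83 ± 0.60, adjusted p = 0.0505, and Bst2, which tethers budding virus to the cell, by 1.24 ± 0.60, adjusted p = 0.158 (limma). Bst2 had 10.89 to 12.91 in tumors, 8.76 to 11.95 in libraries labelled KO MSC and 9.78 to 11.43 in WT MSC, and its tumors 3 and 5 exceeded all MSC libraries. Ifitm1 had 7.29 to 10.58 in tumors, 6.21 to 11.12 in libraries labelled KO MSC and 6.57 to 7.84 in WT MSC, where the highest library was KO_MSC 3. The IFITM genes resemble each other closely, so reads may be divided between them.

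Of the other induced genes, none passed. Xaf1, a binding partner of the apoptosis inhibitor XIAP, was at 9.64, 7.22, 9.41, 9.09, 8.16 and 7.03 in tumors, 5.59, 5.97 and 7.28 in libraries labelled KO MSC, and 5.63, 8.06 and 7.90 in WT MSC. Tumors 1, 3, 4 and 5 lay above all MSC libraries, and tumors 2 and 6 lay within their range. Rtp4, first described as a chaperone of receptors, was at 10.11, 10.18, 11.99, 9.60, 12.39 and 10.47 in tumors, 8.36, 9.13 and 11.28 in libraries labelled KO MSC, and 9.90, 9.75 and 9.64 in WT MSC. Tumors 3 and 5 were the highest and tumor 4 lay below WT MSC. Ifi35, which had tumor values without overlap above WT MSC, differed by 1.12 ± 0.39, adjusted p = 0.0663 (limma), and Ifi44, Ifi27 and Parp14 by 0.54, 1.01 and -0.12. Ifi35 spanned 10.13 to 11.60 in tumors, 9.44 to 11.57 in libraries labelled KO MSC and 9.60 to 9.87 in WT MSC. Ifi44 spanned 6.94 to 9.12 in tumors, 6.45 to 8.21 in libraries labelled KO MSC and 7.58 to 7.76 in WT MSC, and Parp14, which encodes an ADP-ribosyltransferase, 6.91 to 8.44 in tumors, 6.94 to 7.02 in libraries labelled KO MSC and 7.43 to 8.28 in WT MSC. For Ifi27 the values were 10.91 to 13.23 in tumors, 10.07 to 13.36 in libraries labelled KO MSC and 10.74 to 11.24 in WT MSC, so that KO_MSC 3 again lay above every WT MSC library. The RefSeq span of Ifi27l2a (chr12:103433873-103443680) encloses that of Ifi27 (chr12:103434189-103440245), and how reads were divided between them is not given in the sources used here.

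**Figure D3:**
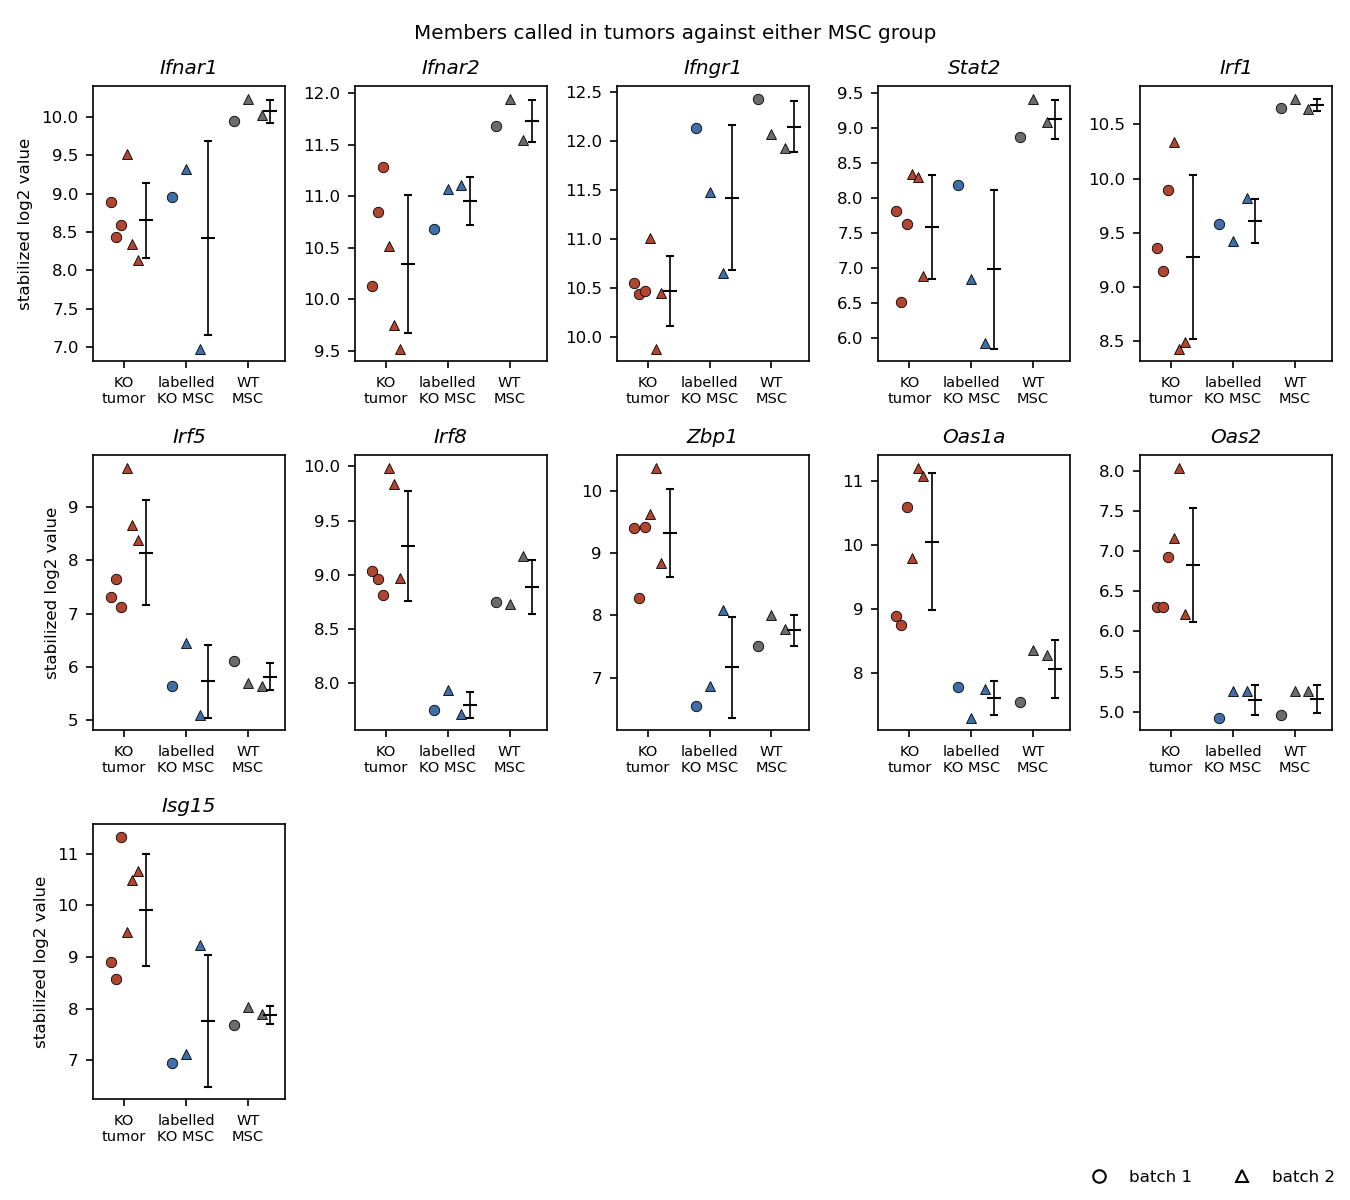
Stabilized log2 values of the 11 members called in KO tumors against either MSC group, in each library (points; circles batch 1, triangles batch 2) with the mean and SD of each group (bars), for 6 KO tumors, 3 libraries labelled KO MSC and 3 WT MSC libraries. The vertical axes differ and do not start at 0. Tumors lie below WT MSC in Ifnar1, Ifnar2, Ifngr1, Stat2 and Irf1 and above it in Irf5, Zbp1, Oas1a, Oas2 and Isg15.

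The libraries labelled KO MSC were set against WT MSC to compare the p53 genotypes among sorted stromal cells. No member passed (lowest adjusted p = 0.551, limma), nor did any of the 18948 genes. At an unadjusted p under 0.05 there were 11 members, all lower, and 1637 genes, 487 higher and 1150 lower (6.07% of all genes lower). The members' differences had a median of -0.67, against -0.01 over all genes, and 38 of the 42 were negative, where 52.2% of all genes were. With quantile scaling 34 members were negative, and with upper-quartile scaling, which moved the median of all genes to 0.09, 35 were. The groups did not overlap in 13 members, all lower in the libraries labelled KO MSC (31.0%), where 8.93% of all genes were lower and 6.31% higher without overlap. These members were Ifnar1, Ifnar2, Stat2, Irf1, Irf7, Irf8, Ddx58, Ifit1, Ifit3, Oasl2, Gbp2, Gbp3 and Parp14.

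The smallest unadjusted p belonged to Oasl2, which was at 8.56, 7.26, 9.11, 9.67, 7.86 and 6.91 in tumors, 8.10, 7.19 and 7.87 in libraries labelled KO MSC, and 9.36, 10.36 and 9.93 in WT MSC. All libraries labelled KO MSC lay below all WT MSC libraries, with a difference of -2.16 ± 0.43 (unadjusted p = 0.00109, adjusted p = 0.551, limma; -1.26 within batch 1 and -2.62 within batch 2). The differences of Ifit1 (-2.79 ± 0.65), Gbp2 (-2.70 ± 0.88) and Stat2 (-2.14 ± 0.60) were of similar or larger size, with adjusted p = 0.551 each (limma). Within batch 1, which holds 1 library of each group, they were -1.32, -1.28 and -0.69, and within batch 2 -3.53, -3.41 and -2.86. Irf1 differed by -1.07 ± 0.33, Ddx58 by -1.24 ± 0.38, Irf8 by -1.09 ± 0.36 and Gbp3 by -1.10 ± 0.38. Against this, Isg15 (-0.10 ± 0.64), Oas2 (-0.01 ± 0.17) and Irf5 (-0.09 ± 0.40) had differences near 0, and Ifitm1 (0.98 ± 1.15), Cmpk2 (0.58 ± 0.65), Ifi27 (0.48 ± 0.79) and Ifi35 (0.44 ± 0.60) were the 4 with positive ones.

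**Figure D4:**
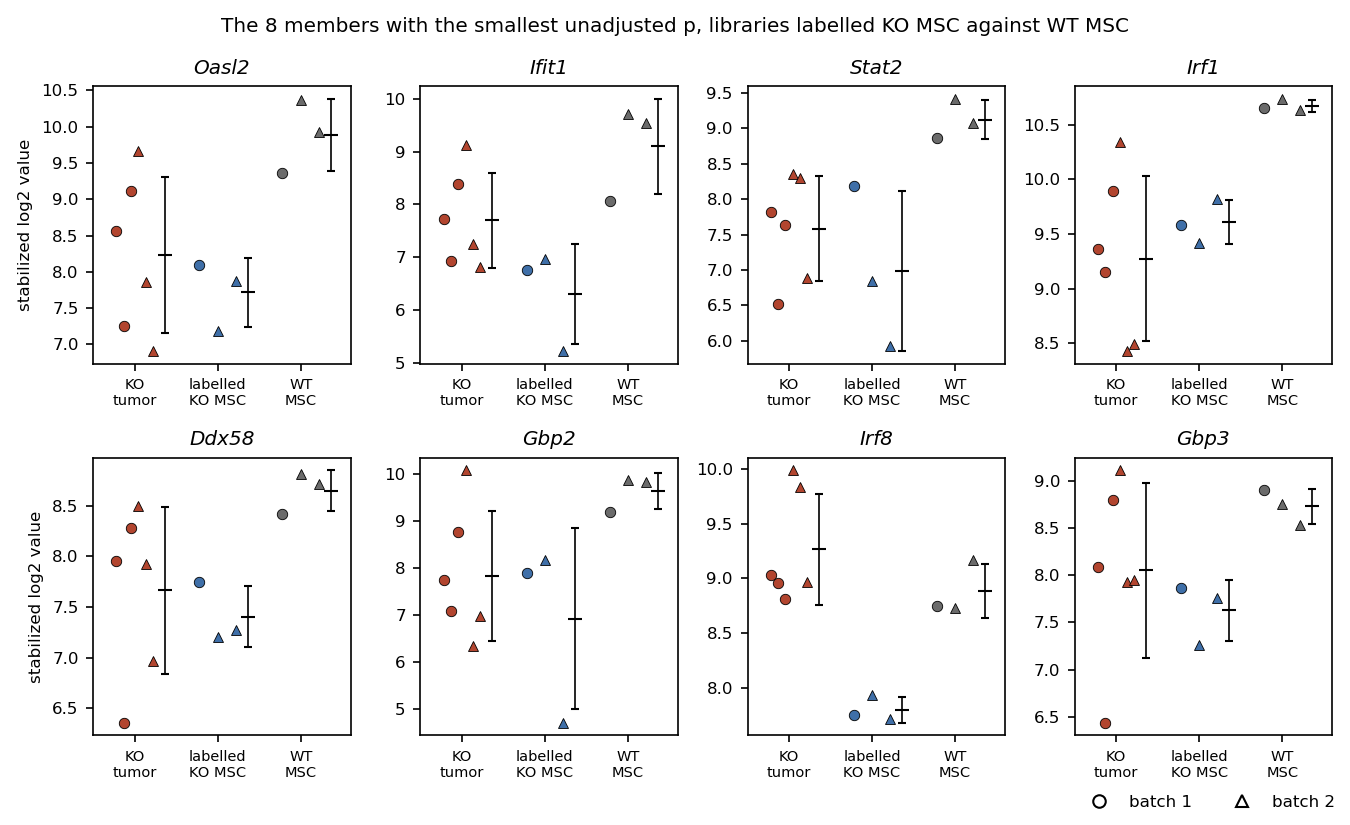
Stabilized log2 values of the 8 members with the smallest unadjusted p for libraries labelled KO MSC against WT MSC, in each library (points; circles batch 1, triangles batch 2) with the mean and SD of each group (bars). The vertical axes differ and do not start at 0. In each of the 8 genes the 3 libraries labelled KO MSC lie below the 3 WT MSC libraries, and none of these differences passed.

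The libraries labelled KO MSC differed among themselves. KO_MSC 3, the one with low Trp53, held values outside the range of the other MSC libraries in both directions. The libraries labelled KO_MSC 1, 2 and 3 were the lowest of the 3 in 13, 14 and 15 members. They were the highest in 17, 9 and 16. Some library must be the lowest and the highest in every member, and ties at the lowest value were counted for 1 library only. These counts therefore do not show that the libraries differed. KO_MSC 3 was low in Gbp2 (4.72), Oasl1 (4.85), Ifit2 (5.02) and Ifnar1 (6.98). It was high in Ifitm1 (11.12), Rtp4 (11.28), Ifi27 (13.36) and Ifitm3 (14.78), of which the highest WT MSC values were 7.84, 9.90, 11.24 and 13.79. The highest tumor values of these genes, in the same order, were 10.58, 12.39, 13.23 and 16.86. With KO_MSC 3 as the lone library labelled KO MSC, a setting that was not planned, 12 member differences were positive and 30 negative. Their median was -0.67, against -0.16 over all genes, of which 33.7% had a positive difference. Differences in this setting included Ifitm1 (3.88), Ifi27 (2.43), Ifi35 (1.85), Rtp4 (1.51), Gbp2 (-4.92), Ifit1 (-3.89) and Oasl1 (-3.50). Markers of LepR+ stromal cells also had lower means in the libraries labelled KO MSC. All 9 had negative differences, 6 without overlap (66.7%, against 8.93% of all genes) and 0 called, with a median of -1.37. Their mean level was 11.06 to 11.84 in the libraries labelled KO MSC and 12.35 to 13.38 in WT MSC. Of the blood cell markers, 7 of 9 for neutrophils and 8 of 10 for erythroid cells had positive differences (medians 1.33 and 0.66, 0 called). The mean of the neutrophil markers was 7.99 to 11.55 in the libraries labelled KO MSC and 6.88 to 10.08 in WT MSC, and that of the erythroid markers 10.7 to 12.41 and 10.02 to 12.9 in the same groups. The part of these markers, of Rn45s and of the number of genes at their lowest value in the members' differences was not tested.

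Among tumors, tumor 2 held the low end. It was the lowest of the 6 tumors in 23 of the 42 members and the highest in 0. Over tested genes with a single lowest or a single highest tumor, tumor 2 was lowest in 21.6% and highest in 9.98%. Among such genes with a mean of 7 or more in tumors, it was lowest in 16.8%. Tumor 4 was the highest in 17 of the 42 members, tumor 5 in 12 and tumor 3 in 8. These tumors were the highest in 27.6%, 22.3% and 6.9% of the tested genes with a single highest tumor. The median member deviated from its mean over the 6 tumors by 0.03, -0.73, 0.48, 0.32, 0.39 and -0.33 in tumors 1 to 6. The members with the largest SD among tumors were Rsad2 (1.53), Ifitm3 (1.38), Gbp2 (1.37), Xaf1 (1.13) and Rtp4 (1.13), and they did not share an order. Tumor 6 was the highest in Rsad2 and the lowest in Ifitm3 and Xaf1, and tumor 4 was the highest in Gbp2 and the lowest in Rtp4.

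**Figure D5:**
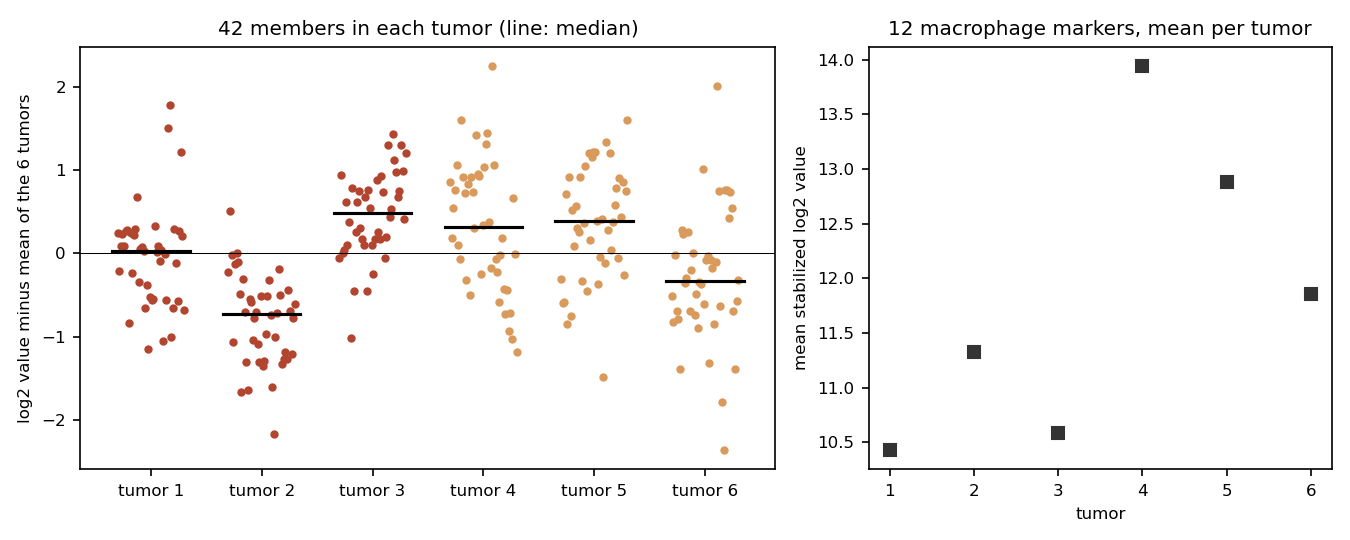
Left, log2 value of each of the 42 members minus its mean over the 6 KO tumors, by tumor (points; lines are medians; tumors 1 to 3 of batch 1 in red, tumors 4 to 6 of batch 2 in orange). Right, mean stabilized log2 value of 12 macrophage markers per tumor (squares; the axis does not start at 0). The member medians are lowest in tumors 2 and 6, and the macrophage marker means are highest in tumors 4 and 5.

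Macrophage and endothelial markers were mostly higher in tumors than in sorted MSC, and stromal markers were lower. Against the libraries labelled KO MSC, 2.7% of all genes passed as higher and 2.28% as lower. Against WT MSC these shares were 10.4% and 10.9%. Of 12 macrophage markers, 10 rose against the libraries labelled KO MSC and 11 against WT MSC. Their mean level was 10.43, 11.33, 10.58, 13.94, 12.88 and 11.86 in tumors 1 to 6, and it was 5.60 to 6.74 in the libraries labelled KO MSC and 5.39 to 6.81 in WT MSC. Of 10 endothelial markers, 5 and 8 rose against these groups (6.75 to 8.85 in tumors, 5.35 to 5.75 in the libraries labelled KO MSC and 5.22 to 5.68 in WT MSC), and of 10 lymphocyte markers 2 and 3 rose (5.67 to 7.45, 5.09 to 5.94 and 5.10 to 5.44 in the same groups). Of 7 markers of dendritic cells, 0 rose against the libraries labelled KO MSC and 2 against WT MSC (Cox6a2 and Itgax), and Siglech, Clec9a and Flt3 were at their lowest value in 2 tumors each. Ptprc, which encodes the CD45 that the MSC sort excluded, rose by 2.57 against WT MSC (adjusted p = 0.0263, limma). Against the libraries labelled KO MSC its difference was 2.30 and did not pass (adjusted p = 0.105, limma), with -0.10 within batch 1 and 4.07 within batch 2, and KO_MSC 1, at 7.60, lay within the range of the tumors. Neutrophil markers fell in 5 of 9 against the libraries labelled KO MSC and 2 of 9 against WT MSC, erythroid markers in 3 of 10 in both, and LepR+ stromal markers in 5 of 9 and 9 of 9, with a mean of 6.78 to 8.97 in tumors. The part of these cells in the members' differences was not tested, and in bulk tissue fewer cells of a type and less RNA per cell cannot be told apart.

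The ligand genes were near or at their lowest values. Of 21 interferon genes 11 were tested and 0 passed in any comparison, and 10 of the 21 lay at their lowest value in all 6 tumors and 2 in all libraries. The highest value of any of them was 5.81, for Ifng, which encodes interferon gamma, in tumor 5. Ifng was at 4.77, 5.20, 5.28, 5.66, 5.81 and 4.73 in tumors, 4.77, 4.73 and 4.73 in libraries labelled KO MSC, and 4.77, 4.73 and 4.73 in WT MSC. Tumors 2 to 5 lay above all MSC libraries in it, and its differences of 0.50 ± 0.24, adjusted p = 0.209 and 0.50 ± 0.24, adjusted p = 0.153 against the libraries labelled KO MSC and WT MSC did not pass (limma).

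Other genes of the pathway were drawn from lists of 114 genes, of which 103 were tested. In tumors, 8 were higher and 2 lower against the libraries labelled KO MSC (9.71%), and 11 were higher and 12 lower against WT MSC (22.3%), where 4.98% and 21.3% of all genes passed. Of the JAK and STAT genes, Tyk2, a kinase of the type I receptor, and Stat3 fell against WT MSC, by 1.67 ± 0.39 and 2.04 ± 0.55 (adjusted p = 0.0136 and 0.0245, limma). Of 6 brakes on cytokine signaling, Socs3 alone passed. Socs3, a STAT-induced inhibitor of JAK kinases, was at 8.72, 8.27, 7.57, 7.68, 6.35 and 7.14 in tumors, 10.86, 9.91 and 10.75 in libraries labelled KO MSC, and 12.65, 12.27 and 11.37 in WT MSC. Tumors lay below all MSC libraries, with differences of -2.88 ± 0.51 against the libraries labelled KO MSC and -4.47 ± 0.50 against WT MSC (adjusted p = 0.0113 and 0.000992, limma).

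In the sensing pathway, tumors had lower Mavs (-1.33 ± 0.40), the mitochondrial adaptor of the RNA sensors, and Tlr3 (-1.23 ± 0.32), a receptor for double-stranded RNA, than WT MSC. They had higher Tlr7 (1.63 ± 0.46) and Tlr9 (1.04 ± 0.30), receptors for RNA and DNA in endosomes of immune cells, and Ifi205 (2.90 ± 0.58), of the family of DNA-binding AIM2-like receptors (adjusted p = 0.00592 to 0.0381 for these 5 genes, limma). Ifi205 and its relative Ifi203 also rose against the libraries labelled KO MSC (2.89 ± 0.56 and 2.36 ± 0.60, adjusted p = 0.0176 and 0.0458, limma). Among 56 further induced genes, 6 rose and 1 fell against the libraries labelled KO MSC (12.5%, where 4.98% of all genes passed). Against WT MSC 8 rose and 6 fell (25.0%, where 21.3% of all genes passed). Ifi27l2a was at 11.95, 11.57, 10.83, 12.81, 16.30 and 12.38 in tumors, 4.86, 5.35 and 6.85 in libraries labelled KO MSC, and 5.15, 6.77 and 6.40 in WT MSC, and every tumor exceeded every MSC library. It rose by 6.95 ± 0.99 and 6.53 ± 0.99 (adjusted p = 0.00475 and 0.00202, limma). Ifi30, a lysosomal thiol reductase of antigen processing, rose by 3.97 and 3.55, Slfn2, a regulator of lymphocyte quiescence, by 3.58 and 3.69, Epsti1 by 2.72 and 2.53, and Oas1g by 3.49 and 1.91. Trim30a rose by 2.87 against the libraries labelled KO MSC, and Ifitm2, the DNA exonuclease gene Trex1 and Apol9a rose by 2.45, 1.85 and 2.40 against WT MSC. The genes that fell against WT MSC were the immunity-related GTPase genes Iigp1 (-3.14) and Irgm2 (-2.01), Lgals3bp (-2.62), Pml of the nuclear bodies (-2.32), the nucleotide hydrolase gene Samhd1 (-1.0) and Ifi44l (-0.44). Pnpt1, an RNA-degrading enzyme of mitochondria, fell by 1.97 against the libraries labelled KO MSC, and Irf2bp1, a partner of IRF2, by 1.28 against WT MSC. Between the libraries labelled KO MSC and WT MSC 0 of the 103 passed, and 78 differences were negative, where 52.2% of all genes were. In 24 of the 103 the libraries labelled KO MSC lay wholly below WT MSC (23.3%, against 8.93% of all genes).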

How the data were processed

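RNA of 12 bulk libraries was sequenced by the authors, and the submitters' processing notes name TopHat2 2.0.13, Cufflinks 2.2.1, Cuffdiff and the build mm10. How values were made after alignment is not given in the sources used here. Of the deposited tables, the first holds log2 values that the authors stabilized and adjusted for batch, per the file headers, and it supplied every value and test. The second deposited table holds a score, not counts, and it supplied the list of genes tested and 1 alternative. In 100% of its genes the score equalled the rounded stabilized value times 100, up to 1 factor per library (tolerance 0.01). The number of per-sample columns left unused was 0. Batches were read from lowest values that libraries share exactly.

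The libraries of both groups compared, and no others, entered each fit in limma 3.58.1 (trend, two-sided, no covariate) in R 4.3.3. Benjamini-Hochberg adjustment was over 18948 genes with a threshold of 0.05. On simulated data the fits missed most small changes. Only 50 genes of each size of change were altered among 18949, whereas 4033 genes passed for tumors against WT MSC. Fewer changed genes make the adjusted threshold stricter, so these percentages are not the power of the fits reported above. Between the MSC groups they recovered 0%, 2%, 54% and 60% of log2 changes of 1, 2, 3 and 4. Tumors against the libraries labelled KO MSC gave 2%, 34%, 68% and 86%, and tumors against WT MSC 2%, 50%, 72% and 88%. Tables were made with Python 3.11.15 and pandas 2.3.3. The members and gene lists were chosen with earlier results of these data known. Values in every library are given for members that passed in a comparison, for the 8 with the smallest unadjusted p between the MSC groups and for the 5 with the largest SD among tumors. Other members are given by differences, ranges and counts, and other pathway genes where they passed or had one of the 3 smallest p of their list. Alternatives were quantile and upper-quartile scaling, no gene filter, no trend, the other deposited table, a batch term, each batch alone, a replicate block, each library left out, and KO_MSC 3 alone. The Trp53 check and the deposited values give no read depth, so no counting intervals are given. In the main fits replicate numbers were not read as pairs.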

Additional observations from a re-analysis of the deposited data

How the results depend on the processing

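Every member call kept its direction under all alternatives run, but few calls kept their side of the threshold. For tumors against the libraries labelled KO MSC, none of the 4 members called passed in batch 1 alone, where 1 other member, Ifngr1, passed as lower (-1.64, adjusted p = 0.0201, limma). The 4 became 0 in batch 2 alone, 0 with KO_MSC 3 as the lone library labelled KO MSC, 2 without the gene filter (Zbp1 and Oas1a) and 0 with the replicate block. The 944 genes called became 3277, 229, 94 and 47 with batch 1 alone, batch 2 alone, KO_MSC 3 alone and the block, and 1545 with quantile scaling. For tumors against WT MSC, the 10 members called became 1 in either batch alone (Ifngr1 in batch 1, Irf5 in batch 2) and 0 with the block, and the 4033 genes called became 775 in batch 2 alone and 1194 with the block. For the libraries labelled KO MSC against WT MSC, the 0 calls stayed 0 with the replicate block, and with KO_MSC 3 alone they became 11 members and 3171 genes. Rtp4, with a difference of -0.18, was then 1.51 (adjusted p = 0.0422, limma). The 13 members lower without overlap became 31 in batch 1, 24 in batch 2 and 23 with KO_MSC 3 alone, where fewer libraries make overlap rarer. The cause of the other shifts was not tested. Leaving out 1 library at a time gave 0 to 4 members and 113 to 1627 genes for tumors against the libraries labelled KO MSC, 1 to 15 members and 1856 to 4737 genes for tumors against WT MSC, and 0 members and 0 genes, with 13 to 21 members without overlap, for the libraries labelled KO MSC against WT MSC. All 4 calls against the libraries labelled KO MSC were lost without KO_MSC 1, KO_MSC 2, tumor 4 or tumor 5, and 7, 9 and 8 of the 10 against WT MSC without WT_MSC 1, 2 and 3. The correlation of deviations between same-numbered libraries labelled KO MSC and WT MSC was 0.238, 0.152 and -0.148. Between differently numbered ones it was -0.324 to 0.298, so the numbers were not read as pairs. With 3 libraries in a group, and with number 1 of both groups in batch 1, these values cannot exclude pairing. Fits with 1 library in a group assume that it varies like the other group. Depth is unknown, so differences of genes near their lowest values, such as Oas2 and Mx1, are understated by an amount that could not be measured.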
